A study of Mus musculus with 12 samples.

Results

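The genes described here are 33 interferon-stimulated genes, a set of antiviral effectors, RNA sensors and transcription factors that type I and type II interferons switch on. They were listed by name from the 27179 genes counted in mature bone marrow B cells. All 33 were found in the table, and all 33 were among the 13592 genes with enough reads to be tested. The cells came from C57BL/6 mice and had been sorted for high B220, surface IgM and the absence of CD93, which marks B cells that have matured and recirculate to the marrow. There were 4 groups of 3 libraries. Young wild-type mice were 9, 10 and 11 weeks old, and old wild-type mice were 98, 99 and 100 weeks old. The other groups were 10 weeks old and all lacked Bak1 (Bak-/-). In the apoptosis-sensitive group Bax was floxed but intact (Baxfl/fl), and in the apoptosis-resistant group Bax was deleted (BaxD/D). BAX and BAK1 are the proteins that open the outer mitochondrial membrane in apoptosis, so cells without either cannot die by that route. What drove the deletion of Bax, and whether a library came from 1 animal or from a pool, is not given in the sources used here.

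Interferons act through surface receptors that activate the kinases JAK1, TYK2 and JAK2. Type I interferon assembles a complex that contains STAT2 and IRF9 and binds the interferon-stimulated response element (ISRE), while the signal of interferon gamma reaches the gamma-activated site (GAS). Many target genes carry either element close to their start. In resting cells many of these genes are kept at a basal level by weak tonic interferon signalling, and they are strongly raised on infection.

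Total counts ran from 13474162 to 23539764 per library, and the series describes the replicates of a group as biological. Libraries of the same replicate number in young and old mice shared a collection date, as did those of the same number in the Bak1-deficient groups. The date of wild-type replicate 1 carries the year 2006 in the labels, and all others carry 2016. The gene-level reads followed the genotypes: Bax ran from 44.2 to 100.1 CPM (a gene's reads scaled to a common library size) in the 3 groups with intact Bax and from 4.97 to 8.36 in the apoptosis-resistant group, and Bak1 ran from 24.7 to 47.9 CPM in wild-type and from 6.17 to 14.4 CPM in Bak1-deficient libraries. Summed over 10 B cell markers the level was 21719.2 to 22876.3 CPM in young, 16186.9 to 20139.5 in old, 21423.6 to 21796.0 in apoptosis-sensitive and 19874.4 to 20556.9 in apoptosis-resistant libraries, and no marker of any list used was at 0 in every library. Cd93, whose protein marks immature B cells and was absent from the sorted cells by gating, still had RNA: 29.3 to 36.1 CPM in young, 9.52 to 13.7 in old, 31.3 to 33.2 in apoptosis-sensitive and 16.1 to 21.1 in apoptosis-resistant libraries. It was therefore lower without overlap in old than in young and in resistant than in sensitive cells, and its part in the results below was not tested. In bulk RNA, fewer cells of a type and less RNA per cell cannot be told apart.

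The promoters of these genes were examined for both elements, because the response is defined by them. The RefSeq promoter table (GRCm38.p6, 250 bases before to 50 bases after the start) held 24 of the 33 genes. The ISRE core, taken as GAAA, any 2 bases and GAAA again and searched on both strands, was present for 13 of 24 (54.2%), against 3.99% of all 27025 genes in the table and 3.44% of its 32851 promoters of this length. The GAS element TTCNNNGAA, which reads the same on either strand, was present for 7 of 24 (29.2%), against 9.55% of genes and 8.3% of promoters. A match is a run of letters, not evidence of binding. The sequences below are the promoters of Oas3, Ifih1 and Stat2, which hold an ISRE core and whose RNA is followed in detail, and that of Irf1, which has no ISRE core in this window but a GAS element and was added after its values were seen. All are printed 5′ to 3′ on the strand of the gene, with the element in capitals: the ISRE core for Oas3 (chr5:120777610-120777909, minus strand), for Ifih1 (chr2:62646206-62646505, minus strand) and for Stat2 (chr10:128270248-128270547, plus strand), and the GAS element for Irf1 (chr11:53769764-53770063, plus strand).
Oas3: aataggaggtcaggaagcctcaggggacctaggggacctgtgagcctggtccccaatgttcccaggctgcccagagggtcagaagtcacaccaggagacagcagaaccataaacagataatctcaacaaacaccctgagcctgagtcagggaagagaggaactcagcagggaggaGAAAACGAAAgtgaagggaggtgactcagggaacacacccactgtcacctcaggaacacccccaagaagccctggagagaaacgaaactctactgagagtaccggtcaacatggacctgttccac
Ifih1: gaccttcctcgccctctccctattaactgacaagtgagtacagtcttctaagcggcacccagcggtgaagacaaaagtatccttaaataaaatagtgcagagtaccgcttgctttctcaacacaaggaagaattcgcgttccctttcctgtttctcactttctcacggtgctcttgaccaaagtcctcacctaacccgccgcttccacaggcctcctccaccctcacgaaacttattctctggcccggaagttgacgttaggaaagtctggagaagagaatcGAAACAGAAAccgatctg
Stat2: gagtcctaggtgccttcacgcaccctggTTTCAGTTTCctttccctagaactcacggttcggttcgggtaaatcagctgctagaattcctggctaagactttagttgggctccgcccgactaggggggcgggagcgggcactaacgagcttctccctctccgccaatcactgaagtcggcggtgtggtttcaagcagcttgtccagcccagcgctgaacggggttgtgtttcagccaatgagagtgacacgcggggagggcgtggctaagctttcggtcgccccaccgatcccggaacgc
Irf1: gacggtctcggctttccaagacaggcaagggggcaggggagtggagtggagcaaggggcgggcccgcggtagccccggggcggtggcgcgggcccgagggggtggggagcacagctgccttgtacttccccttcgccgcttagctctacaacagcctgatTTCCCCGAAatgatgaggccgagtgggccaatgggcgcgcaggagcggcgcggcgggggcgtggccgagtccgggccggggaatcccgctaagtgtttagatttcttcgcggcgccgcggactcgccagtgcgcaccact
The element starts 75 bases before the start in Oas3, 222 bases before it in Stat2 and 90 bases before it in Irf1, and lies within the first transcribed bases in Ifih1. None of these 4 windows holds both elements. The window of Oasl1 holds neither.

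Several of the genes are neighbours, so their RNA is not always read from independent places. The 5 oligoadenylate synthetase genes lie on chromosome 5, with Oas2 and Oas3 separated by 3211 bases and Oasl2 and Oasl1 by 10897. Ifit1, Ifit2 and Ifit3 lie together on chromosome 19, Rsad2 and Cmpk2 on chromosome 12 with a gap of 12664 bases, Parp14 and Parp9 on chromosome 16 with a gap of 66951, and Mx1 and Mx2 on the same chromosome with a gap of 73174. Reads of near-identical relatives, Ifit3 and Ifit3b or Oas1a and Oas1g, may be divided uncertainly between them. The same holds for overlapping genes, because the strand setting of the counting is not given.

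Levels were compared between genes as CPM per kilobase of exon length, averaged over the 12 libraries, for the 32 genes with a length (Mx1 had none). The most abundant were Ifi27l2a, which encodes a small interferon-inducible protein, at 47.8, Irf1 at 42.6, Trim30a at 40.3, Stat2 at 35.6 and Ifi35 at 33.7 CPM per kilobase. The lowest were Oasl2 at 1.68, Rsad2 at 1.05, Ifit1 at 0.949, Ifih1 at 0.77 and Ifi44 at 0.0847. Of the factors that carry the interferon signal, Stat2 ranked 4, Irf9 7 (24.4 CPM per kilobase) and Irf7 12 (10.7) of 32, whereas Isg15, a ubiquitin-like protein that is among the most strongly induced genes of an acute response, had 3.38 and Ifit1 under 1 CPM per kilobase. Ifi44 had only 3 to 16 reads in a library, so its fold changes are imprecise.

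**Figure D1:**
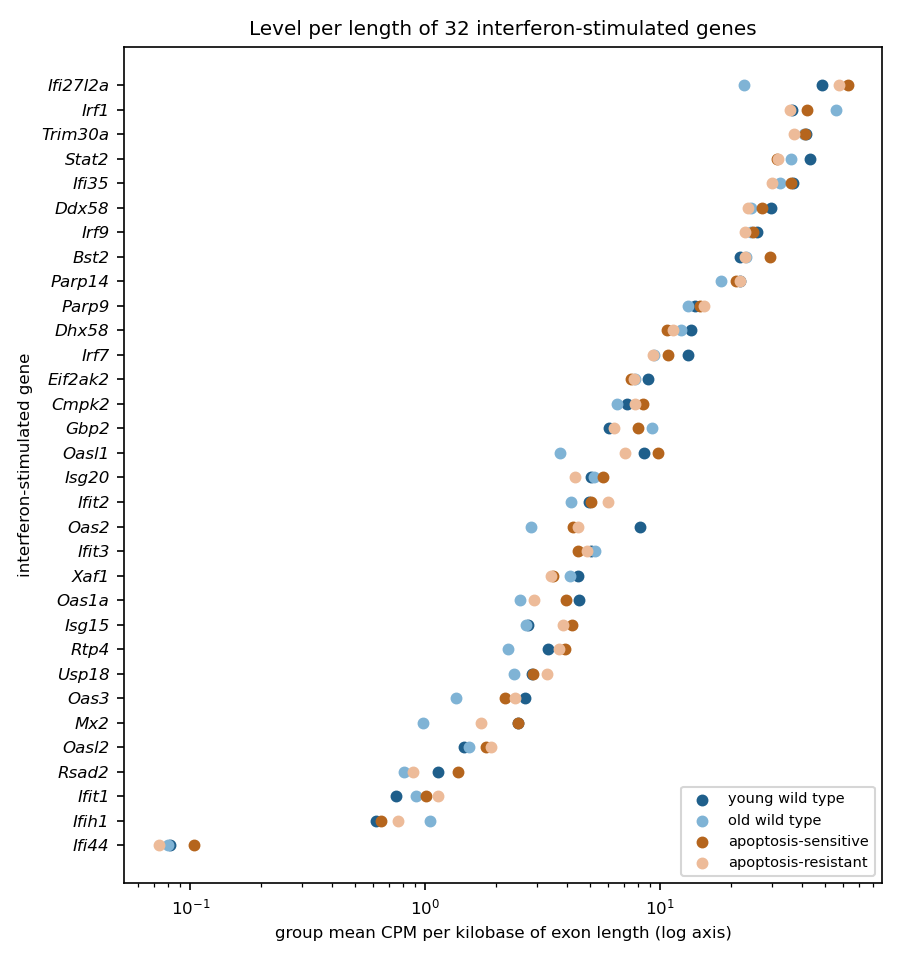
Group mean level of 32 interferon-stimulated genes, in CPM per kilobase of exon length on a log axis, with a point for each of the 4 groups of 3 libraries. The order runs from Ifi27l2a (47.8 over all libraries) to Ifi44 (0.0847), and for most genes the 4 group means lie close together beside the span of the axis. Old wild type lies to the left of the other groups for Ifi27l2a, Oasl1, Oas2, Oas3 and Mx2 and to the right for Irf1 and Ifih1.

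Old and young wild-type B cells were compared to ask what age does to this program. The genes did not move together. The antiviral effectors Oasl1, Oas2, Oas3, Mx2 and Ifi27l2a were lower in old cells, while the transcription factor Irf1 and the RNA sensor Ifih1 were higher, and most of the others changed little. With edgeR's quasi-likelihood test on the 4 groups, adjusted over all 13592 genes, 1 of the 33 passed the threshold of 0.05, Oasl1, which fell, beside 0.309% of all genes that fell. No gene of the set passed in the higher direction, beside 1.7% of all genes. In either direction 7 of the 33 had an unadjusted p under 0.05, beside 1573 of all 13592 genes. When the shared collection date was added as a block, 5 fell (Oasl1, Ifi27l2a, Oas3, Mx2 and Oas2), beside 7.03% of all genes, and 2 rose (Irf1 and Ifih1), beside 7.89%. DESeq2 without the block called 3 lower (Oasl1, Mx2 and Ifi27l2a), beside 0.886% of all genes, and 2 higher (Irf1 and Ifih1), beside 3.94%. In the fit with the block but without the pair of libraries dated 2006, Irf1 alone passed, beside 4.38% of all genes that rose. None of the set passed in the lower direction, beside 2.35%. In that fit 10 of the 33 had an unadjusted p under 0.05, beside 3277 of all 13757 genes. The median log2 fold change of the 33 genes was -0.18, against -0.03 for all genes tested, and 25 of the 33 had a value below 0. This depended on young replicate 1: without it the median was -0.03, against 0.04 for all genes, and 19 of 33 were below 0.

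The oligoadenylate synthetases sense double-stranded RNA and, in the case of the enzymatically active members, activate RNase L. Oasl1 (Entrez gene 231655, chromosome 5, 114923143 to 114937911), a family member without synthetase activity that restrains translation of Irf7 RNA, had 26.5, 24 and 16.6 CPM in young mice, 8.66, 9.47 and 11.2 in old mice, 19.2, 30.2 and 26.7 in apoptosis-sensitive and 17.3, 24.5 and 13.4 in apoptosis-resistant cells. All 3 old libraries were below every library of the other groups. The mean fell from 22.3 ± 5.15 to 9.77 ± 1.29 CPM (SD, n = 3 each), a log2 fold change of -1.19 ± 0.27 (SE; edgeR adjusted p = 0.04996). With the date block the value was -1.18 ± 0.22 (adjusted p = 0.00629). The call without the block was lost when DESeq2's size factors replaced the trimmed-mean factors (0.05028), when the fit held the 6 wild-type libraries alone (0.164), and without the 2006 pair (-0.97, adjusted p = 0.174). It was kept in 1 of 6 fits that each left out a library, the fit without young replicate 3, with a log2 fold change between -1.37 and -1.03 in all 6 and an adjusted p from 0.0458 to 0.167.

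Oas2 (Entrez gene 246728, chromosome 5, 120730333 to 120749886) had 72.1, 21.4 and 15.6 CPM in young, 20, 9.72 and 7.96 in old, 23.6, 18 and 15.4 in apoptosis-sensitive and 21.2, 30.3 and 8.08 in apoptosis-resistant cells. Young replicate 1 stood far above the other 11 libraries, and old replicate 1 of the same date was the highest of the old group, so the young and old ranges overlapped. Its log2 fold change was -1.53 ± 0.60 without the block (edgeR adjusted p = 0.321) and -1.34 ± 0.31 with it (0.0296). Leaving out young replicate 1 moved the unblocked value to -0.53, and without the 2006 pair the blocked value was -1.05 (adjusted p = 0.153). Its neighbour Oas3 (Entrez gene 246727, chromosome 5, 120753098 to 120777684), whose promoter is printed above, had 21.1, 19.5 and 15.6 CPM in young, 6.41, 9.21 and 13.1 in old, 20.5, 17.6 and 8.42 in apoptosis-sensitive and 20.3, 22.7 and 7.84 in apoptosis-resistant cells. Here no single young library stood out, and the young and old ranges did not overlap. The log2 fold change of Oas3 was -0.97 ± 0.42 (edgeR adjusted p = 0.4) and -1.01 ± 0.23 with the date block (0.0175), and -0.67 (0.0899) with the block but without the 2006 pair. Replicate 3 of either Bak1-deficient group had less than 9 CPM of Oas3, as low as the old wild-type libraries.

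The remaining synthetases differed from these. Oas1a had 12.3, 8.31 and 4.88 CPM in young and 7, 3.84 and 3.55 in old libraries, lower in old within each date, and gave a log2 fold change of -0.81 ± 0.25 with the block (edgeR adjusted p = 0.0516). Oasl2, the enzymatically active relative that lies next to Oasl1, had 7.81, 11.9 and 8.31 CPM in young and 8.32, 8.8 and 12.3 in old, with a log2 fold change of 0.07 ± 0.23. With the block 3 of the 5 genes of the family fell, beside 7.03% of all genes, while edgeR without the block and DESeq2 each called Oasl1 alone.

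The Mx proteins and guanylate-binding proteins are large GTPases that block viruses and intracellular microbes. Mx2 (Entrez gene 17858, chromosome 16, 97536081 to 97560901) had 14.8, 7.32 and 4.75 CPM in young, 4.75, 2.61 and 3.28 in old, 7.27, 7.35 and 12.3 in apoptosis-sensitive and 6.28, 7.76 and 4.68 in apoptosis-resistant cells. The lowest young and the highest old library differed by less than the rounding of these values. Its log2 fold change was -1.33 ± 0.43 (edgeR adjusted p = 0.176) and -1.24 ± 0.31 with the block (0.0232); without young replicate 1 the unblocked value was -0.74. Mx1, a defective allele of which is carried by C57BL/6 mice, had 30.6, 15 and 7.78 CPM in young and 16.7, 11.5 and 8.82 in old libraries, so the spread within an age was wider than the difference between ages (-0.52 ± 0.47). Gbp2 went the other way, with 8.3, 20.6 and 16.8 CPM in young and 9.35, 23.5 and 36.9 in old, higher in old within each date, but its log2 fold change of 0.51 ± 0.19 with the block did not pass (edgeR adjusted p = 0.098).

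Ifi27l2a (Entrez gene 76933, chromosome 12, 103433873 to 103443680), the first of the set per length in the mean over 12 libraries though not in old cells (22.6 CPM per kilobase, below Irf1 at 56), had 16.6, 31.5 and 19.4 CPM in young, 8.17, 14.7 and 8.44 in old, 22.7, 22.9 and 41.2 in apoptosis-sensitive and 26.8, 31.1 and 21.9 in apoptosis-resistant cells. Every old library was below every other library. The old-to-young ratio was close to the same on each date, at 0.492, 0.468 and 0.435. Its mean was 22.5 ± 7.93 CPM in young and 10.5 ± 3.72 in old (SD, n = 3 each), a log2 fold change of -1.11 ± 0.34 (edgeR adjusted p = 0.146) and of -1.11 ± 0.23 with the date block (0.0137). Without the 2006 pair the blocked value was -1.14 (0.099). The other genes of mixed function, Rtp4, Xaf1, Ifi35 and Ifi44, had blocked log2 fold changes between -0.56 and -0.05, and none of them passed.

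Among the RNA sensors, Ifih1 (Entrez gene 71586, chromosome 2, 62595618 to 62646255) encodes MDA5, which detects long double-stranded RNA. It had 4.93, 5.22 and 4.95 CPM in young, 7, 9.67 and 8.98 in old, 5.75, 4.82 and 5.28 in apoptosis-sensitive and 6.83, 6.91 and 5.07 in apoptosis-resistant cells. The young libraries were tightly grouped and every old library was above all 9 others. The mean was 5.03 ± 0.166 CPM in young and 8.55 ± 1.39 in old, with a log2 fold change of 0.76 ± 0.23 (edgeR adjusted p = 0.152), 0.76 ± 0.21 with the block (0.0329) and 0.88 (0.0544) with the block but without the 2006 pair. Ddx58, which encodes the sensor RIG-I, had 254, 197 and 175 CPM in young and 187, 160 and 165 in old, lower on each date, with a blocked log2 fold change of -0.28 ± 0.11 (adjusted p = 0.1). Dhx58, the third sensor of the family and a regulator of the others, had -0.05 ± 0.19. The sensors therefore did not share a direction.

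**Figure D2:**
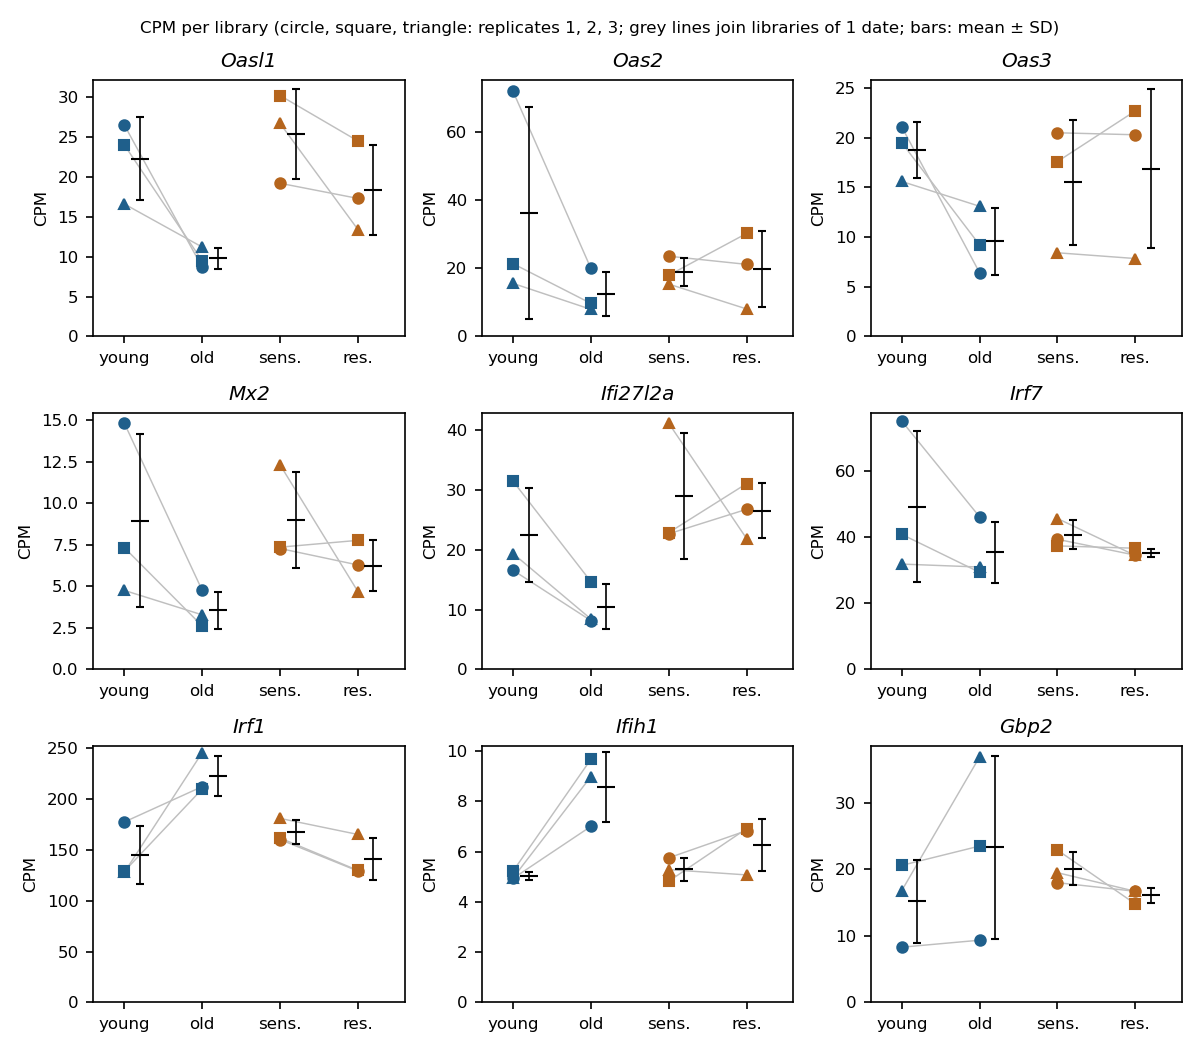
Level in CPM of 9 interferon-stimulated genes in each of the 12 libraries, with the mean and SD of each group of 3 beside the points and grey lines joining libraries of the same collection date (circle, square and triangle are replicates 1, 2 and 3; blue wild type, brown Bak1-deficient). Oasl1, Oas2, Oas3, Mx2, Ifi27l2a and Irf7 slope down from young to old on every date and Irf1, Ifih1 and Gbp2 slope up, while young replicate 1 at 72.1 CPM sets Oas2 apart.

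Of the transcription factors, Irf1 (Entrez gene 16362, chromosome 11, 53770014 to 53778374), which is induced through its GAS element and drives guanylate-binding protein and antigen presentation genes, was higher in old cells. It had 177.6, 129.1 and 128.0 CPM in young, 212.4, 210.1 and 245.9 in old, 160.3, 161.8 and 181.1 in apoptosis-sensitive and 129.3, 129.9 and 165.3 in apoptosis-resistant cells. Every old library was above all 9 others. The mean was 145 ± 28.3 CPM in young and 223 ± 20.0 in old, with a log2 fold change of 0.62 ± 0.18 that did not pass without the block (edgeR adjusted p = 0.123). With the block it was 0.63 ± 0.12 (0.0054), and without the 2006 pair the blocked value was 0.82 ± 0.10 (0.00223). On the 2006 date the old library was 1.2 times the young one, and on the other dates 1.63 and 1.92 times.

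The factors of the type I signal did not follow Irf1. Stat2, a subunit of the complex that binds the ISRE, had 388, 194 and 188 CPM in young, 269, 174 and 196 in old, 216, 174 and 170 in apoptosis-sensitive and 197, 205 and 162 in apoptosis-resistant cells. Its highest values in either wild-type group came from replicate 1, and its log2 fold change between ages was -0.27 ± 0.28, turning to 0.18 without young replicate 1. Irf7, the factor that amplifies type I interferon production, had 75.2, 40.9 and 31.9 CPM in young, 46.2, 29.4 and 31 in old, 39.4, 37.4 and 45.7 in apoptosis-sensitive and 34.6, 36.7 and 34.5 in apoptosis-resistant cells. The young and old ranges of Irf7 overlapped, and its log2 fold change was -0.47 ± 0.28 (edgeR adjusted p = 0.644), -0.41 ± 0.13 with the block (0.0536) and -0.01 without young replicate 1. Irf9, the DNA-binding subunit of the same complex, had a blocked value of -0.06 ± 0.11.

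The genes most often used as landmarks of an acute response were low in every group and gave no difference beyond their error. Isg15 had 1.81, 2.57 and 1.85 CPM in young, 0.881, 3.22 and 1.99 in old, 3.16, 2.82 and 3.55 in apoptosis-sensitive and 1.79, 3.45 and 3.54 in apoptosis-resistant cells. Ifit1, which binds viral RNA lacking the host cap methylation, had 1.23, 2.74 and 1.98 CPM in young, 1.62, 2.87 and 2.8 in old, 3.72, 1.76 and 2.53 in apoptosis-sensitive and 3.86, 3.7 and 1.43 in apoptosis-resistant cells. Usp18, the protease that removes ISG15 and restrains the type I receptor, had 9.12, 7.58 and 7.12 CPM in young, 5.97, 7.32 and 6.61 in old, 7.84, 7.23 and 8.84 in apoptosis-sensitive and 10.5, 11.3 and 5.93 in apoptosis-resistant cells. The ranges of Ifit1 and Usp18 overlapped between all 4 groups, as did those of Isg15 except that every apoptosis-sensitive library was above every young one. Their log2 fold changes with age were -0.04 ± 0.45 for Isg15, 0.27 ± 0.47 for Ifit1 and -0.26 ± 0.27 for Usp18. A fall of the size seen for Oasl1 therefore lies outside about 2 standard errors for each of them. For Ifit1 a rise of that size lies near the limit of that interval and is not excluded. The sign for Isg15 turned to 0.24 without the 2006 pair.

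The remaining members showed smaller or no differences with age. Among the other antiviral effectors (Eif2ak2, which encodes the kinase PKR; Isg20, a nuclease; Rsad2 or viperin and its neighbour Cmpk2, which act on nucleotides; Bst2 or tetherin; and Trim30a), 0 of 6 passed in edgeR with or without the block, and their log2 fold changes ran from -0.47 for Rsad2 to 0.08 for Bst2. Parp9 and Parp14, enzymes of ADP-ribosylation that modulate STAT signalling, had blocked values of -0.11 ± 0.09 and -0.27 ± 0.09, the latter with an edgeR adjusted p of 0.0517. Ifit2 and Ifit3 had -0.30 ± 0.15 and 0.09 ± 0.34.

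**Figure D3:**
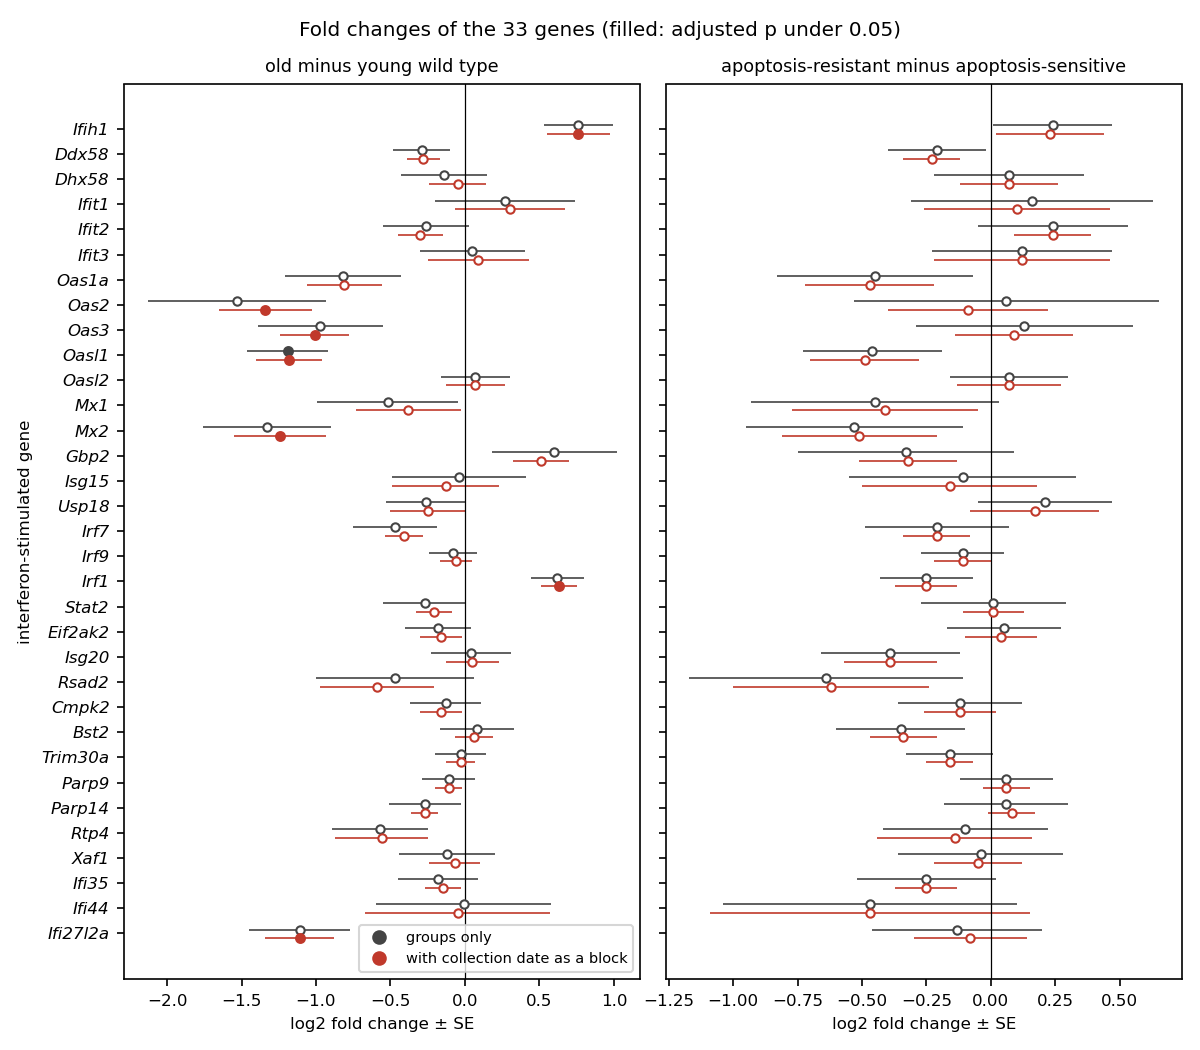
Log2 fold change ± SE of the 33 genes, old minus young wild type on the left and apoptosis-resistant minus apoptosis-sensitive on the right, from edgeR with groups only (black) and with collection date as a block (red), with filled points for an adjusted p under 0.05. On the left 1 black point and 7 red points are filled, while on the right none is.

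For part of the set, the wild-type libraries of replicate 1 stood apart. Young replicate 1 was the highest young library for 19 of 33 genes (57.6%, against 42.9% of all genes), and for some by a wide margin: its level relative to the mean of the other young libraries was 3.9 for Oas2, 2.69 for Mx1, 2.45 for Mx2, 2.12 for Dhx58, 2.06 for Irf7 and 2.03 for Stat2. In old replicate 1, of the same date, the corresponding ratios were 2.26 for Oas2, 1.65 for Mx1, 1.61 for Mx2, 1.28 for Dhx58, 1.53 for Irf7 and 1.45 for Stat2. Other members were low in both libraries, with ratios of 0.444 and 0.309 for Gbp2, 0.522 and 0.571 for Ifit1 and 0.672 and 0.464 for Ifit2. Some went opposite ways, with 1.49 in the young and 0.643 in the old library for Ifit3 and 1.2 and 0.576 for Oas3. Whether the collection date itself, the animals or another difference lies behind this cannot be told apart.

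Within dates the age difference was uneven. The old library was lower than the young for 25 of 33 genes on the date of replicate 1 (median log2 ratio -0.48, against -0.06 over all genes) and for 25 on that of replicate 2 (-0.24, against -0.01), but for 14 on that of replicate 3 (0.06, against 0.01). Over all 13592 genes the old library was lower for 7468, 6958 and 6678 on these dates. On all 3 dates the difference was negative for 13 genes (39.4%, against 25.2% of all genes) and positive for 4 (12.1%, against 22.8%), namely Ifih1, Ifit1, Gbp2 and Irf1. Young and old groups did not overlap for 4 genes that were lower in old (Oas3, Oasl1, Mx2 and Ifi27l2a), beside 6.96% of all genes, and for 2 that were higher (Ifih1 and Irf1), beside 9.16%.

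**Figure D4:**
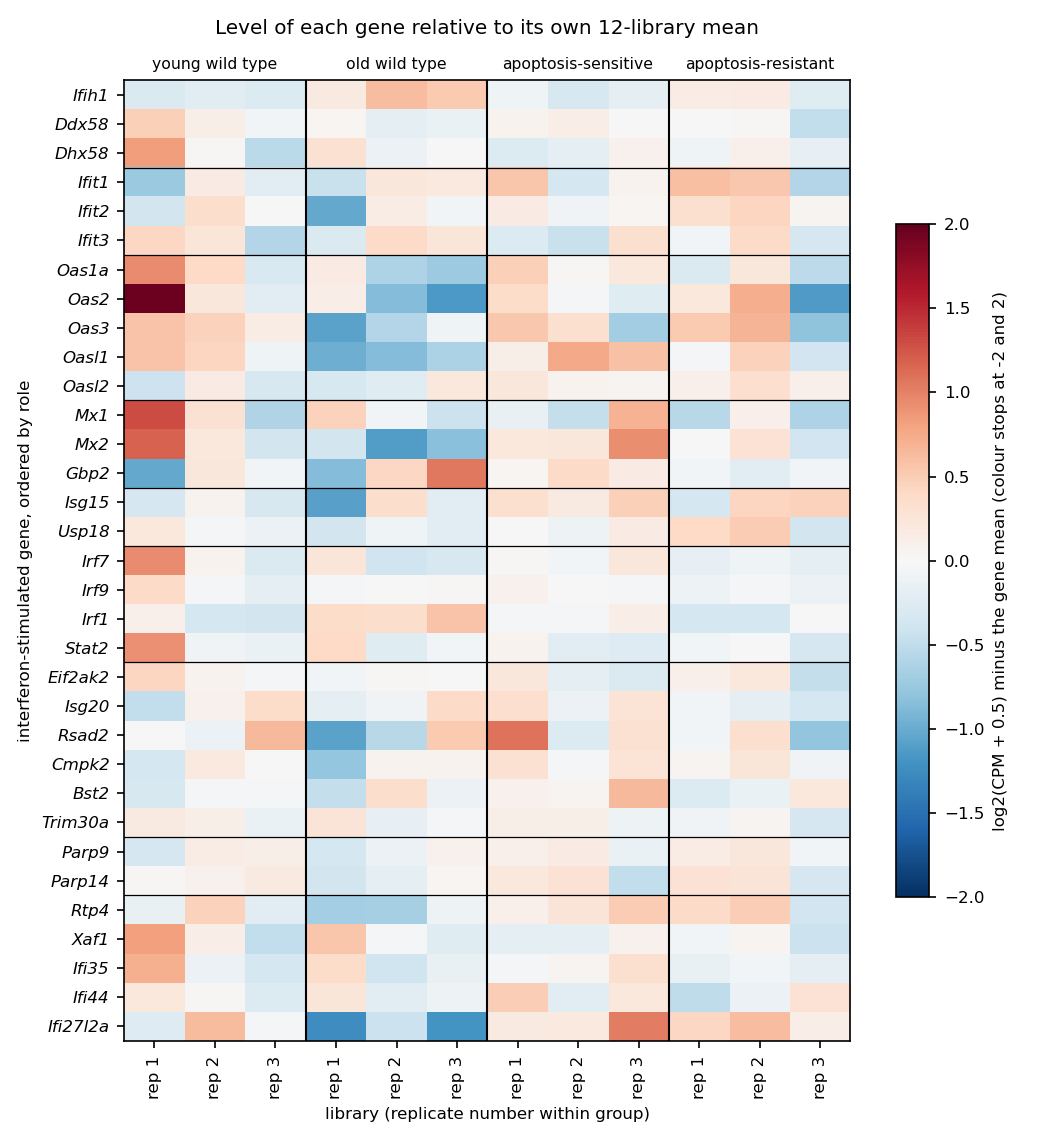
Level of each of the 33 genes in each of the 12 libraries, as log2(CPM + 0.5) minus the gene's mean over the libraries, with red above and blue below the mean and the colour stopping at -2 and 2. Young replicate 1 is red for Oas2, Mx1, Mx2, Irf7 and Stat2 and blue for Gbp2 and Ifit1, resistant replicate 3 is blue for most genes, and the old libraries are blue for Oasl1 and Ifi27l2a and red for Irf1 and Ifih1.

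Apoptosis-resistant and apoptosis-sensitive cells were compared to ask whether the loss of Bax in cells already without Bak1 alters the program. It did not detectably do so: 0 of the 33 genes passed in edgeR, beside 0.0441% of all genes, and 0 with the date block, beside 3.41%, or in DESeq2, beside 0.792%. Members with an unadjusted p under 0.05 numbered 0 in edgeR, 2 with the block and 0 in DESeq2. Over all genes, 666 of 13592, 2363 of 13592 and 849 of 20426 had an unadjusted p under 0.05 in these fits. The median log2 fold change was -0.11, against -0.02 for all genes, and it lay between -0.23 and -0.04 when each library was left out in turn. It was -0.23 without resistant replicate 2, -0.04 without resistant replicate 3 and -0.06 without sensitive replicate 3. Oasl1, the gene with the smallest p, had -0.46 ± 0.27, with an interval of about 2 standard errors from -0.99 to 0.06, and Irf1 had -0.25 ± 0.18 (-0.60 to 0.11). For Stat2 the interval ran from -0.54 to 0.56, for Isg15 from -0.98 to 0.75, for Ifit1 from -0.76 to 1.08 and for Usp18 from -0.31 to 0.73. With the date block the intervals were narrower: -0.89 to -0.08 for Oasl1 (edgeR adjusted p = 0.261), -0.48 to -0.02 for Irf1 (0.293), -0.22 to 0.24 for Stat2, -0.83 to 0.52 for Isg15, -0.61 to 0.82 for Ifit1 and -0.32 to 0.65 for Usp18.

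The next genes by p were Isg20, Bst2, Mx2 and Rsad2. Isg20 had 11.9, 8.53 and 11.3 CPM in apoptosis-sensitive and 8.9, 8.12 and 7.17 in apoptosis-resistant cells (-0.39 ± 0.27). Bst2 had 22.7, 22.3 and 34 against 17.7, 19.5 and 24.9 CPM (-0.35 ± 0.25). Rsad2 had 9.36, 3.35 and 5.24 against 4, 5.33 and 2.2 CPM (-0.64 ± 0.53), with apoptosis-sensitive replicate 1 far above the others. The ranges of all 3 overlapped between the groups. The groups did not overlap for 4 genes, all lower in apoptosis-resistant cells (Gbp2, Irf7, Irf9 and Ifi35), beside 8.31% of all genes, and for 0 that were higher, beside 6.32%.

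The 3 date pairs of the Bak1-deficient groups disagreed with each other. The resistant library was higher for 11 of 33 genes on the date of replicate 1 (33.3%, against 47.9% of all genes; median log2 ratio -0.12), for 22 on that of replicate 2 (66.7%, against 50.1%; 0.24) and for 5 on that of replicate 3 (15.2%, against 49.3%; -0.40). Oas2 shows this, with resistant-to-sensitive ratios of 0.899, 1.68 and 0.525, and so does Ifi27l2a, with 1.18, 1.36 and 0.531. Resistant replicate 2 was the highest library of its group for 25 of 33 genes (75.8%, against 28.9% of all genes), and the summed level of the 33 genes was 1539, 1631 and 1290 CPM in the resistant libraries, against 1649, 1594 and 1532 in the sensitive ones. On all 3 dates Ifit2 and Parp9 were higher in resistant cells (6.06% of the set, against 22% of all genes) and 10 genes were lower (30.3%, against 23.2% of all genes).

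Whether the age effect differed from the genotype effect was tested directly as the difference of the 2 log2 fold changes, which rest on separate libraries. Irf1 had the smallest p, with a difference of 0.87 ± 0.25 that did not pass without the block (edgeR adjusted p = 0.277), was 0.89 ± 0.16 with it (0.0126) and 1.07 ± 0.12 with the block but without the 2006 pair (0.00326). Without the block 0 of 33 passed, beside 0.25% of all genes, with 1 at an unadjusted p under 0.05, beside 935 of all 13592 genes. DESeq2 also called 0, beside 1.58% of all genes, and gave Irf1 an adjusted p of 0.0811. It gave 3 members an unadjusted p under 0.05, beside 1348 of 20426 genes. With the block 1 passed, beside 7.03%. For Oasl1 the difference was -0.73 ± 0.38 (edgeR adjusted p = 0.818), for Ifi27l2a -0.98 ± 0.47 (0.757), for Oas3 -1.10 ± 0.60 (0.844) and for Ifih1 0.52 ± 0.33 (0.939), and none of these passed with the block either, so the fall of the antiviral effectors was not shown to differ between the comparisons.

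Apoptosis-sensitive cells were set against young wild-type cells as the baseline of the Bak1-deficient mice. These groups shared no collection date, so date and genotype cannot be told apart. None of the 33 genes passed in edgeR, where 0% of all genes did, or in DESeq2, beside 0.107%, and 0 had an unadjusted p under 0.05 in either. Over all genes, 371 of 13592 in edgeR and 601 of 20426 in DESeq2 had an unadjusted p under 0.05. The largest departures by p were Bst2, with 17, 21 and 21.1 CPM in young and 22.7, 22.3 and 34 in apoptosis-sensitive cells (0.42 ± 0.25), and Stat2 (-0.46 ± 0.28). Oas2 had -0.93 ± 0.60, which became 0.05 without the 2006 pair. Isg15 had 0.61 ± 0.45 and Oasl2, at 12.4, 11.1 and 11 CPM in apoptosis-sensitive cells, 0.30 ± 0.23. The median over the 33 was 0.01, against -0.01 for all genes.

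The rest of the pathway was read from lists of ligands, receptors, signalling parts, nucleic acid sensors, other interferon-stimulated genes and the class I antigen presentation genes. Of 18 interferon ligands, 15 had 0 reads in every library, which allows 0.127 to 0.223 CPM, depending on the library. Ifng had 1 to 29 reads, Ifnk 0 to 4 and Ifnz 0 to 4. Interferon made by other cells of the marrow would not be seen in sorted B cells. Of 6 receptor subunits, 0 passed with age in edgeR without the block, in which 0 had an unadjusted p under 0.05, and in DESeq2; with the block 1 of 6, Ifnar1, a chain of the type I receptor, fell, beside 7.03% of all genes, with 245, 247 and 239 CPM in young and 207, 203 and 200 in old (-0.26 ± 0.08, adjusted p = 0.0444).

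Of the brakes on cytokine signalling, Socs1 and Socs3 were higher in old cells. Socs3, an inhibitor of receptor-bound JAK kinases, rose from 21.4, 12 and 11.1 to 62.6, 46.7 and 43.8 CPM (1.79 ± 0.30, edgeR adjusted p = 0.0126). Socs1, which blocks type I and type II interferon signalling and is itself induced by it, rose from 2.96, 4.75 and 5.21 to 11.2, 14.1 and 19.1 CPM (1.77 ± 0.40, adjusted p = 0.048). Neither pair of ranges overlapped. These were the 2 of 12 relay and brake genes that passed in edgeR without the block and in DESeq2, beside 1.7% and 3.94% of all genes that rose, and 0 fell. Cish, a further SOCS family member, and the phosphatases and Pias1 of the list passed neither without nor with the block: without it Cish had 0.91 ± 0.48 (edgeR adjusted p = 0.555), Ptpn6 -0.28, Ptpn2 0.05, Ptpn11 0.12 and Pias1 -0.03. The median of the list was 0.08.

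Of 84 other interferon-stimulated genes tested, 9 rose and 0 fell in edgeR without the block, beside 1.7% and 0.309% of all genes. With the block 20 rose and 13 fell, beside 7.89% and 7.03%, and DESeq2 called 14 higher and 2 lower, beside 3.94% and 0.886%. The genes that rose included GTPases known as targets of interferon gamma. Gbp6 had 3.2, 2.01 and 1.91 CPM in young and 14.8, 18.1 and 13.1 in old (2.69 ± 0.33, edgeR adjusted p = 0.00479). Iigp1 had 0.657, 0.428 and 1.12 against 9.93, 19.1 and 14.4 CPM (4.31 ± 0.65, adjusted p = 0.00767). Tgtp2 had 5.26, 7.92 and 6.99 against 21.9, 18.4 and 22.7 CPM (1.64 ± 0.26, adjusted p = 0.0105), and Tgtp1 1.97, 1.24 and 1.32 against 4.45, 8.04 and 5.64 CPM (2.01 ± 0.38, adjusted p = 0.0223). Tgtp1 and Tgtp2 are near-identical copies, as are several Gbp genes, so their shares of reads are uncertain. The other genes that rose without the block were Gbp8, Igtp, Gbp7 and the chemokines Ccl5 and Cxcl10. Not all Gbp genes of the list rose: Gbp3 (-0.25), Gbp5 (0.12) and Gbp9 (-0.05) passed neither without nor with the block. Gbp4 (0.37 without the block) rose only with it. With the block the genes that fell, none of which edgeR called without it, were led by Ifi209, with 481, 480 and 465 CPM in young and 324, 281 and 348 in old (-0.59 ± 0.10, edgeR adjusted p = 0.00276). Next came Ms4a4c (-0.57 ± 0.10), Slfn2 (-0.53 ± 0.09) and Ifi208 (-0.72 ± 0.14). The 2 genes that DESeq2 called lower without the block were Shisa5 and Ifi209. The median of the list was 0.04 without the block.

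Of 20 class I antigen presentation genes, which interferon gamma and IRF1 are known to raise, 0 passed in edgeR without the block. In that fit 4 had an unadjusted p under 0.05, beside 1573 of all 13592 genes. DESeq2 called 1 higher (Psmb9), beside 3.94% of all genes, and 9 rose with the block, beside 7.89%. None fell in any of the 3 fits. Psmb9, a subunit of the immunoproteasome, had 105.0, 88.6 and 81.4 CPM in young and 180.0, 164.5 and 141.9 in old (0.82 ± 0.09 with the block, adjusted p = 0.000223), without overlap. Nlrc5, the activator of class I genes, had 289.3, 107.6 and 113.2 against 544.7, 268.9 and 306.8 CPM (1.22 ± 0.14, adjusted p = 0.000685), and H2-Q4 1308, 418 and 397 against 1562, 738 and 672 CPM (0.61 ± 0.12, adjusted p = 0.00643). For both the replicate 1 libraries were far above the others of their group, so the ranges overlapped although each date showed a rise. H2-T22 had 0.62 ± 0.10. The median of the list was 0.25 without the block. Of 22 nucleic acid sensing genes, 0 passed without the block in edgeR or DESeq2, and 2 had an unadjusted p under 0.05 in edgeR, beside the same 1573 genes. With the block 3 rose and 2 fell, beside 7.89% and 7.03% of all genes. Those that rose were Trex1, a DNase that clears cytosolic DNA (0.55 ± 0.11), the RNA receptor Tlr7 (0.40 ± 0.10) and Zbp1 (0.56 ± 0.17), and those that fell were Samhd1, which degrades nucleotides (-0.47 ± 0.11), and Irf2, a factor that competes with IRF1 (-0.36 ± 0.10).

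**Figure D5:**
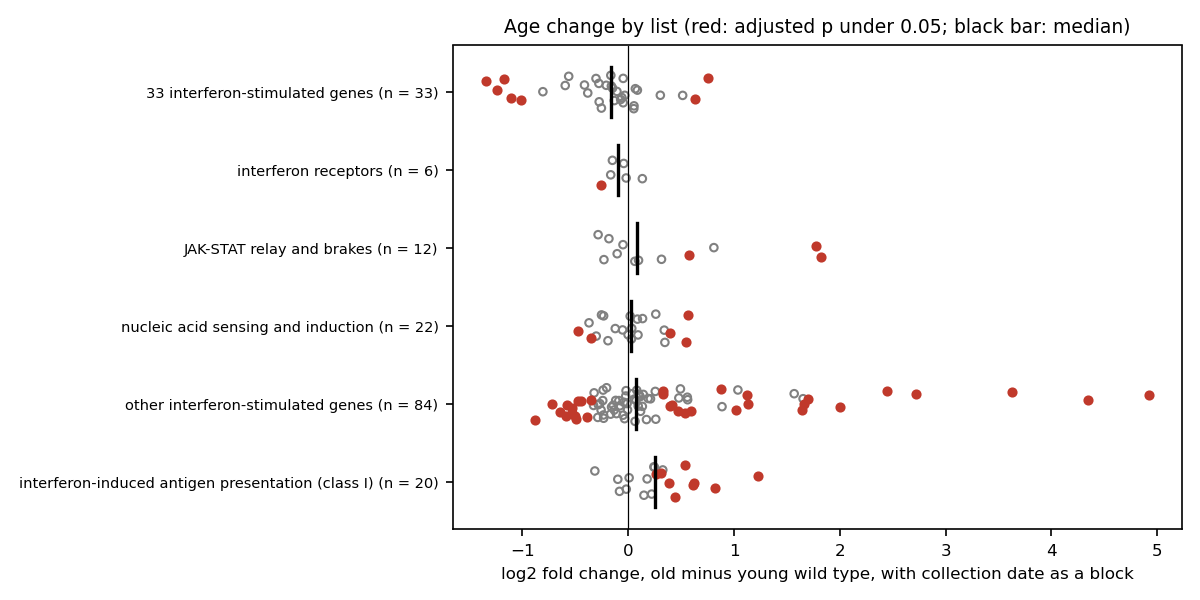
Log2 fold change of old against young wild type, from edgeR with collection date as a block, for the 33 genes and 5 lists of the pathway, with 1 point a gene, red for an adjusted p under 0.05, and a black bar at the median of each list. The 33 genes have 5 red points below 0 and 2 above it, the 84 other interferon-stimulated genes reach 4.92 for Cxcl10, and all 9 red points of the class I list lie above 0.

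In the genotype comparison 0 genes of these lists passed in edgeR without the block. Among the 84 other interferon-stimulated genes 6 had an unadjusted p under 0.05 in that fit, beside 666 of all 13592 genes. DESeq2 called 2 lower (Gbp3 and Ifi30), beside 0.792% of all genes in either direction. With the block Gbp8 rose and Ifi30, Gbp3, Phf11b and Ifi47 fell, beside 3.41%. Gbp8, also raised in old cells, had 3.55, 4.7 and 3.32 CPM in apoptosis-sensitive and 6.07, 7.82 and 10.8 in apoptosis-resistant cells (1.08 ± 0.23 with the block, adjusted p = 0.0308).

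Markers of other cells moved with both comparisons and stand beside these results. The summed level of 6 NK cell markers was 1.1 to 3.5 CPM in young and 6.5 to 13.1 in old libraries, and that of 7 stromal markers 3.2 to 23.2 and 21.1 to 168.3. Sums of 8 plasmacytoid dendritic cell markers were 41.3 to 58.7 and 61.0 to 70.0 CPM, of 12 monocyte and macrophage markers 22.4 to 145.4 and 55.1 to 217.1, and of 11 T cell markers 36.8 to 74.3 and 49.2 to 83.3. Although the T cell sums overlapped, the median log2 fold change of the 11 T cell markers with age was 2.48. In edgeR 2 rose without the block (Cd3g and Trac), beside 1.7% of all genes, and 6 rose with it, beside 7.89%. Without the block 10 had an unadjusted p under 0.05, beside 1573 of all 13592 genes. With the block 4 of 4 tested NK cell, 5 of 6 tested stromal and 6 of 10 tested monocyte and macrophage markers also rose, beside the same 7.89%. Without it only 1 of each list rose (Ncr1, Cxcl12 and Adgre1), beside 1.7% of all genes. In that fit 4, 4 and 5 of them had an unadjusted p under 0.05, beside the same 1573 genes. The sums of NK cell and plasmacytoid dendritic cell markers did not overlap between the ages, and the sum of B cell markers was lower in old. Taken singly, the 6 tested plasmacytoid dendritic cell markers went both ways, with a median log2 fold change of 0.47 (-0.46 to 1.76). Without the block 1 of them rose (Ccr9), beside 1.7% of all genes, and 2 rose with it (Ccr9 and Pacsin1), beside 7.89%. Single B cell markers had a median log2 fold change of -0.26 with age (-0.73 to 0.06). None passed without the block, and 2 fell with it (Fcer2a and Cr2), beside 7.03% of all genes. Ccl5, listed above, is also a product of NK and T cells. Plasma cell markers ranged from 402.3 to 709.5 CPM in young and from 349.1 to 1580.8 in old. Between the genotypes, the sum of 8 granulocyte markers was 79.2 to 741.2 CPM in apoptosis-sensitive and 29.9 to 69.9 in apoptosis-resistant libraries, without overlap, and that of 7 erythroid markers 41.0 to 229.9 and 34.0 to 71.1. Their median log2 fold changes were -2.41 and -1.73 without the block, and 0 of either list passed in that fit. An unadjusted p under 0.05 was found for 2 and 0 of them, beside 666 of all 13592 genes. Retnlg, a granulocyte gene, fell with the block. The sum of the 10 B cell markers, given above, was also lower without overlap in resistant cells. Taken singly they went both ways, with a median log2 fold change of -0.04 (-0.47 to 0.35), and 0 passed without or with the block. The part of these cells in the differences above was not tested.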

How the data were processed

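RNA was measured in 12 libraries of sorted bone marrow B cells. A Qiagen kit served for extraction and the Illumina TruSeq RNA v2 guide for the libraries, per the labels' protocols. The authors deposited raw read counts per Entrez gene, with 1 column per library and 0 columns unused. The tools were Subread and featureCounts and the build was mm10, per the submitters' processing notes. Their versions, the annotation, the strand setting and any filter are not given in the sources used here.

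Groups and replicate numbers came from the labels. Gene symbols came from RefSeq (GRCm38.p6) and matched 25275 of 27179 Entrez genes (1904 did not). Exon lengths came from GENCODE vM21 through Entrez numbers, and promoters from the RefSeq promoter table. Genes were kept by filterByExpr with a minimum of 10 reads. Counts were scaled by the trimmed mean of M values (TMM) and all 12 libraries were fitted by group with edgeR 4.0.16 in R 4.3.3 (robust quasi-likelihood test, 8 residual degrees of freedom), with Benjamini-Hochberg adjustment over 13592 genes at a threshold of 0.05. The procedure was tested on simulated data. CPM values are after TMM.

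Replicate numbers mark shared collection dates in the labels. Deviations from the group means correlated between libraries of the same date at 0.745, 0.512 and 0.555 in wild type and 0.284, 0.325 and 0.487 in Bak1-deficient cells, so the numbers were taken to pair the libraries, and results of a fit with the date as a block (4 residual degrees of freedom) stand beside the others where they change a call or a count. Other alternatives were DESeq2 1.42.0, DESeq2-type size factors, no low-count filter, only the libraries compared, leaving out each library or the 2006 pair, and, chosen after seeing the data, the date block without the 2006 pair.

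The 33 genes were listed by name, with no threshold on a measured value, but they and all other lists were chosen with earlier results of these data known. Values in every library are given for members called in any comparison with or without the block, for the next by p up to 6 a comparison, and for Irf7, Stat2, Isg15, Ifit1, Usp18 and Irf1. From each other list up to 4 called genes by p with a mean of at least 1 CPM are named with values. Promoters shown are from members given in full that hold the ISRE core, the first by p with the block, plus Irf1. Results for 1 item are not reported here. Intervals given are about 2 standard errors either side of a value. They come from the fits and include the spread between replicate libraries. The limits given for ligands without reads cover counting error only.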

Additional observations from a re-analysis of the deposited data

How the results depend on the processing

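Of the 33 genes, the number called between ages was 1 in the group fit and 0 with DESeq2-type size factors (7 at an unadjusted p under 0.05, beside 1575 of all 13592 genes). It was 0 with only the 6 wild-type libraries (6 unadjusted, beside 1109 of 13234 genes). The number was 5 with DESeq2, 7 with the date as a replicate block, and 0 to 1 when each library was left out in turn. Over all genes the counts were 735 with DESeq2, 2028 with the replicate block, 1 with only the libraries compared, 925 with the block but without the 2006 pair, and 75 to 238 when each library was left out. With the replicate block and without the 2006 pair the number of members called was again 1, but the gene was Irf1 and not Oasl1. For the genotype the counts over all genes were 127 with DESeq2, 11 without the low-count filter, 463 with the replicate block and 0 to 5 with a library left out. For apoptosis-sensitive against young cells they were 15 with DESeq2, 3 without the filter, 3 without the 2006 pair and 0 to 1 with a library left out. For the difference of effects they were 247 with DESeq2, 955 with the replicate block, 75 without the 2006 pair, 647 with the block but without it, and 2 to 37 with a library left out, and 1 member passed in each fit with the block. Apart from the calls given beside each gene, the block changed no other call of a member.

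No value that turned in sign passed the threshold in the fit where it did so. With age, Isg15 was 0.24 without the 2006 pair and 0.23 with the block as well, and between -0.53 and 0.32 with a library left out, as Stat2 was between -0.47 and 0.18. For apoptosis-sensitive against young cells, Oas2 was 0.05 and Irf7 0.18 without the 2006 pair, and with a library left out Oas2 ran from -1.27 to 0.06, Irf7 from -0.49 to 0.19 and Usp18 from -0.07 to 0.14. For the genotype the ranges were -0.05 to 0.13 for Stat2, -0.27 to 0.14 for Isg15 and -0.06 to 0.51 for Ifit1. For the difference of effects they were -0.51 to 0.21 for Irf7, -0.49 to 0.18 for Stat2, -0.43 to 0.42 for Isg15 and -0.25 to 0.42 for Ifit1. The causes were not tested. The median of the 33 genes stayed between -0.27 and -0.03 for age with a library left out, between -0.23 and -0.04 for the genotype and between -0.01 and 0.15 for apoptosis-sensitive against young cells. Depth limits the genes with few reads, Ifi44 with 3 to 16 reads a library above all.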
